A study of Mus musculus with 21 samples.

Results

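The skin transcriptome was compared between recipients of allogeneic marrow that were given water (4 libraries) and recipients of syngeneic marrow (4 libraries), which together make up 8 of the 21 libraries of the series. All recipients were BALB/c mice of 8 weeks that received 700 cGy of total body irradiation and marrow 6 hours later, and each library came from an area of skin 3 mm across, taken 7 weeks after transplantation. Syngeneic recipients had BALB/c marrow and allogeneic recipients had B10.D2 marrow, which carries the same H-2d haplotype. Treatment began on day 21 and lasted 4 weeks. The syngeneic group received an isotype control antibody at 20 mg/kg and then 10 mg/kg, 2 times a week. The allogeneic group studied here received ddH2O, listed at 2 injections a week, whose route is not given. A second allogeneic control, which received the isotype antibody (4 libraries), was set beside it. The labels do not say whether replicates came from separate animals, so p-values measure the spread between these samples, which may be technical.

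Transfer of B10.D2 marrow into irradiated BALB/c mice models chronic graft-versus-host disease of the sclerodermatous type, where donor T cells recognise minor histocompatibility antigens of the host. Activated T cells release interferon-gamma, which signals through JAK kinases to raise antigen presentation, guanylate-binding GTPases and chemokines in neighbouring cells. In skin, the disease is known for inflammation at the interface of epidermis and dermis, loss of hair follicles, sebaceous glands and fat, and later fibrosis.

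The water libraries were counted in another counting run than the syngeneic libraries, with partly different gene names, so counting run, donor marrow, the agent given and the group coincide and cannot be told apart. The comparison was therefore limited to 14300 symbols with a mean count of 20 or more in both the 12 libraries of the first run (syngeneic, allogeneic isotype and anti-IL1RAP) and the 9 of the second (water and nintedanib). Total counts were 22756279 to 32899212 in syngeneic and 17424792 to 18060310 in water libraries, and the kept symbols held 89.5% to 90.8% and 93.6% to 97.2% of them. On the first principal component (31.7% of the variance) the syngeneic libraries lay between 73.0 and 83.7, the water libraries between -79.9 and -45.2, and the allogeneic isotype libraries, from the first run, between -47.7 and -15.3. The keratinocyte markers Krt14 and Flg and the fibroblast genes Col1a1 and Dpt were detected in all 8 libraries, as skin would give. Skeletal muscle genes made up 5.39% to 8.50% of kept counts in syngeneic and 0.960% to 7.58% in water libraries. Transcripts of 4 Y-linked genes summed to 2.93 to 7.33 CPM (scaled counts relative to library size) in the syngeneic libraries and to 0 in all 8 libraries of both allogeneic control groups. In the anti-IL1RAP and nintedanib groups these sums had a median of 0 and reached 16.6 and 29.4 CPM. Xist was at 388 to 413 CPM in syngeneic, 276 to 320 CPM in water and 296 to 363 CPM in isotype libraries. The sex of donors and recipients is not in the labels, and any difference in it cannot be told apart from the group here.

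**Figure D1:**
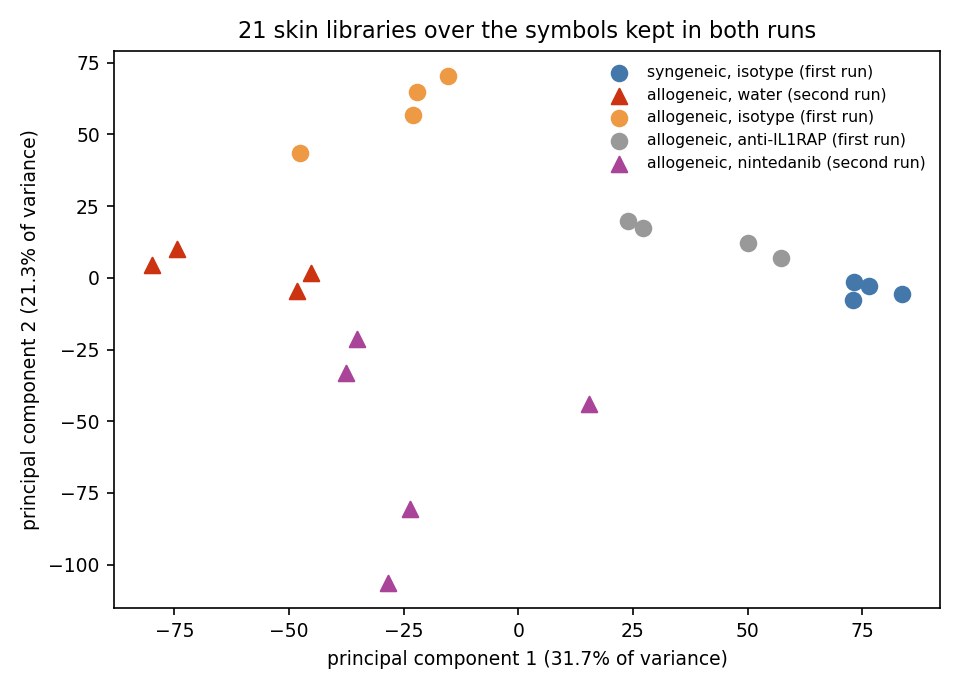
Position of each of the 21 libraries on the first (31.7% of the variance) and second (21.3%) principal component of log2 CPM over 14300 symbols, coloured by group, with triangles for the second counting run. The water libraries lie between -79.9 and -45.2 on the first component, the allogeneic isotype libraries between -47.7 and -15.3, and the syngeneic libraries lie between 73.0 and 83.7.

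Levels are given as CPM, TMM-scaled counts relative to library size, in the order of replicates 1 to 4. Differences are log2 fold changes ± SE from edgeR's quasi-likelihood test, with p-values adjusted by Benjamini-Hochberg over the 14300 symbols, and a gene was called where the adjusted p was under 0.05. Of all symbols tested, 40.8% were called between water-treated allogeneic and syngeneic skin, 21% (3001) higher and 19.8% (2830) lower, with a median log2 fold change of -0.02. Without any overlap between the 4 and the 4 libraries were 46.5% of symbols, 23.7% higher and 22.8% lower. Against these shares each gene list is described by its own counts.

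Interferon genes were higher in water-treated allogeneic skin almost throughout. Of 34 interferon-stimulated genes tested, 30 rose and none fell, with a median log2 fold change of 1.98, and of 28 genes of the interferon-gamma axis and the guanylate-binding GTPases, 24 rose and none fell, with a median of 3.52. Stat2, a transcription factor of type I interferon signalling, was at 56.9, 45.1, 42.1 and 41.9 CPM in the syngeneic and 199, 303, 238 and 238 CPM in the water libraries, a log2 difference of 2.39 ± 0.30, adjusted p = 5.84e-06. Every water library lay above every syngeneic one, and replicate 2 was the highest of the water libraries.

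Several genes of antiviral defence were among those that rose. Oas3, which makes the oligoadenylates that activate RNase L, was at 6.61, 4.38, 3.32 and 2.67 CPM in syngeneic and 72.2, 150.1, 98.9 and 88.2 CPM in water libraries, a log2 difference of 4.59 ± 0.59, adjusted p = 7.57e-06. Oas1a, of the same family, was at 12.7, 8.38, 6.97 and 5.95 CPM and 45.2, 96.3, 78.6 and 67.2 CPM (3.08 ± 0.40, adjusted p = 9.71e-06). Isg15, a ubiquitin-like protein attached to other proteins, was at 19.8, 7.09, 16 and 9.06 CPM and 66.8, 128, 90.6 and 86.9 CPM (2.84 ± 0.41, adjusted p = 2.89e-05). Syngeneic replicate 1 was the highest of its group for all 3 of these genes, yet below every water library.

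Targets typical of interferon-gamma rose as well. Iigp1, an immunity-related GTPase that attacks pathogen vacuoles, was at 27.4, 25.3, 22.5 and 22.5 CPM in syngeneic and 632, 785, 538 and 402 CPM in water libraries (4.59 ± 0.68, adjusted p = 3.69e-05). Gbp8, a guanylate-binding protein, ranged over 1.32 to 3.05 CPM and 35 to 92.2 CPM (4.81 ± 0.63, adjusted p = 9.98e-06). The ligands of the T cell receptor CXCR3 followed: Cxcl10 was at 4.28, 2.19, 4.13 and 2.53 CPM and 61.2, 159.8, 125 and 91.9 CPM (5.06 ± 0.78, adjusted p = 5.73e-05), and Cxcl11 at 0.691, 1, 1.06 and 0.677 CPM and 11.7, 37.3, 30.3 and 30.9 CPM (5.01 ± 0.76, adjusted p = 5.35e-05). For both chemokines replicate 1 was the lowest and replicate 2 the highest of the water libraries. Ifng itself, the cytokine gene, was at 0.117 ± 0.0999 CPM in syngeneic and 2.32 ± 1.13 CPM in water libraries (mean ± SD, n = 4 each), a log2 difference of 4.24 ± 0.83 (adjusted p = 0.000573).

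The promoters of 5 of these genes are shown because they carry 2 copies of GAAA with any 2 bases between them, the core that interferon regulatory factors are known to bind. Each stretch is written 5′ to 3′ in the direction of its gene, from the RefSeq promoter table of GRCm38.p6, an older build than the GRCm39 of the counts, and capitals mark the motif on either strand, run together where copies overlap.
Stat2: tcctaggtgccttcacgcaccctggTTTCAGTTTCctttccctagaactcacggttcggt
Oas3: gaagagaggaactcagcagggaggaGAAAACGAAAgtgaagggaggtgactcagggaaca
Oas1a: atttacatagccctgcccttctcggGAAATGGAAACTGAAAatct
Isg15: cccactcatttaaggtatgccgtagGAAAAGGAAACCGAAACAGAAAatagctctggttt
Cxcl10: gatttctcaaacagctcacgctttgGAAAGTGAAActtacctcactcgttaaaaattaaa

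In GRCm38.p6 the stretch of Stat2 is chr10:128270251-128270310 on the plus strand, that of Oas3 is chr5:120777700-120777759, that of Oas1a is chr5:120907526-120907570, that of Isg15 is chr4:156200862-156200921 and that of Cxcl10 is chr5:92349068-92349127, all 4 on the minus strand. The first base of the motif as printed lay 222, 75, 20, 78 and 213 bases before the annotated start, in that order. Isg15 holds 3 overlapping copies and Oas1a holds 2. Within 250 bases before a start, on both strands, the motif stood in 2.98% of the 32851 promoters in the table and in at least 1 promoter of 379 of the 11272 tested symbols that matched it (3.36%). Of the lists, 10 of 24 matched interferon-stimulated genes, 11 of 20 matched genes of the interferon-gamma axis, 3 of 18 matched ribosomal protein genes, 2 of 11 matched cytotoxic effector genes, 1 of 13 matched MHC class I genes and 0 of 18 matched housekeeping genes held it. A match describes the letters only.

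**Figure D2:**
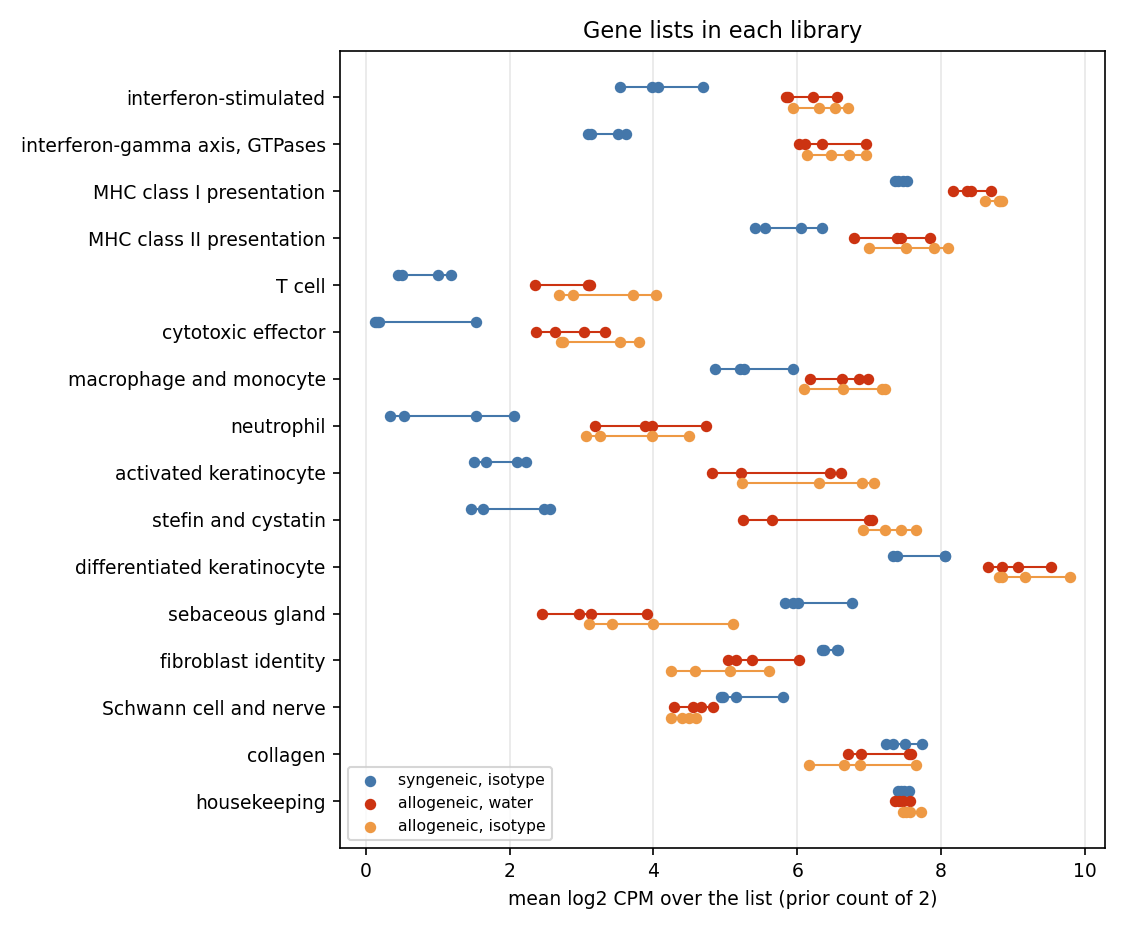
Mean log2 CPM (prior count of 2) over 16 gene lists in each syngeneic, water-treated allogeneic and isotype-treated allogeneic library, 1 point per library, with a line over each group's range. The interferon-stimulated list lies between 3.54 and 4.69 in syngeneic and between 5.85 and 6.55 in water libraries, whereas the housekeeping list lies between 7.40 and 7.55 and between 7.37 and 7.56.

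Antigen presentation was higher on both arms. Of 16 MHC class I genes 14 rose and none fell (median 0.99), and of 11 MHC class II genes 8 rose and 1 fell (median 1.73). Tap1, a subunit of the peptide transporter, was at 128, 147, 154 and 177 CPM in syngeneic and 377, 641, 435 and 450.0 CPM in water libraries (1.65 ± 0.34, adjusted p = 0.00103). Its partner Tap2 (1.37 ± 0.31, adjusted p = 0.0019), the immunoproteasome subunit Psmb10 (1.75 ± 0.38, adjusted p = 0.00139) and the loading factor Tapbp (1.27 ± 0.31, adjusted p = 0.00309) also rose. Ciita, the master regulator of class II genes, was at 10.2, 22.8, 15.4 and 9.73 CPM and 46.8, 109.5, 74 and 75.6 CPM (2.40 ± 0.50, adjusted p = 0.00101). The class II chaperone Cd74 was at 660.4, 1171, 1015 and 589 CPM and 2313, 5215, 3984 and 3909.6 CPM (2.17 ± 0.55, adjusted p = 0.00439), and its protease Ctss was at 50.9, 175, 53.2 and 61.7 CPM and 383, 894, 548 and 559 CPM (2.81 ± 0.63, adjusted p = 0.00186). Syngeneic replicate 2 was the highest of its group and water replicate 2 of its own for these 3 class II genes, with no overlap between groups. The class II member that fell was Rfx5, a DNA-binding factor of the class II promoters, at 21.9, 24.4, 29.7 and 25.8 CPM and 14.5, 21.1, 17.1 and 17 CPM (-0.54 ± 0.13, adjusted p = 0.00313).

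Transcripts of T cells and cytotoxic cells were low in level and higher in water libraries. Of 20 T cell genes 14 rose and none fell (median 2.22), and of 14 cytotoxic effector genes 9 rose and none fell. Cd4 was at 1.12, 2.28, 1.78 and 1.43 CPM in syngeneic and 10.2, 24.9, 31.7 and 28.3 CPM in water libraries (3.85 ± 0.59, adjusted p = 5.71e-05). Cd8a was at 0.302, 0.619, 0.144 and 0 CPM and 5.96, 20.6, 17.9 and 9.45 CPM (5.68 ± 1.20, adjusted p = 0.00115). The T cell receptor constant gene Trac was at 1.51, 1.52, 2.02 and 1.14 CPM and 9.43, 12.2, 12.5 and 12.9 CPM (2.92 ± 0.59, adjusted p = 0.000804). No library of one group reached the other for these 3 genes, and water replicate 1 was the lowest of its group for each. Gzmb, a granule protease that triggers death of target cells, was at 0.778, 1.33, 0.673 and 0.25 CPM and 6.87, 13.9, 10.8 and 6.42 CPM (3.65 ± 0.92, adjusted p = 0.00434), and the T cell chemokine Ccl5 was at 1.86, 6.33, 0.769 and 1.5 CPM and 35.4, 96.3, 67.5 and 32.8 CPM (4.48 ± 1.02, adjusted p = 0.00199). In the list for gamma-delta T cells, which mouse epidermis is known to hold, 2 of 6 genes tested were higher and none lower. Receptor genes of that list, Trdc, Trdv4, Trgc1 and Trgv5 among them, were not among the genes tested. In bulk tissue, more or fewer cells of a type and more or less RNA per cell cannot be told apart.

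Most macrophage genes were higher, and the receptor Cd163 was lower. Of 23 macrophage and monocyte genes 17 rose and 1 fell (median 1.41), and the number that rose was between 10 and 11 without syngeneic replicate 1, 3 or 4 or water replicate 3. Fcgr1, the high-affinity IgG receptor, was at 8.21, 6.81, 4.23 and 3.81 CPM in syngeneic and 21.5, 33.6, 42.7 and 24.4 CPM in water libraries (2.41 ± 0.54, adjusted p = 0.00172), and Fcgr4 was at 1.21, 4.71, 1.2 and 0.82 CPM and 27.2, 38.6, 39 and 21.6 CPM (4.00 ± 0.85, adjusted p = 0.00115). Cd163, the haemoglobin scavenger receptor of resident macrophages, was the 1 member that fell, from 63.3, 72.9, 33 and 49.1 CPM to 5.83, 10.7, 6.82 and 4.6 CPM (-2.96 ± 0.56, adjusted p = 0.000417). The complement list had 7 of 17 genes higher and 1 lower, among them C1qb (2.12 ± 0.47, adjusted p = 0.0018) and the anaphylatoxin receptors C3ar1 (2.30 ± 0.58, adjusted p = 0.00412) and C5ar1 (1.76 ± 0.48, adjusted p = 0.00685).

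Among neutrophil genes 5 of 7 tested rose and none fell (median 2.75). Cxcr2, the receptor that draws neutrophils to tissue, was at 0.216, 1.38, 0.24 and 0.499 CPM in syngeneic and 23.4, 10.0, 8.31 and 43.2 CPM in water libraries (5.18 ± 0.81, adjusted p = 7.13e-05). S100a9, a subunit of calprotectin, was at 1.38, 3.24, 0.817 and 1.28 CPM and 31.1, 3.08, 4.33 and 55.9 CPM (3.81 ± 0.88, adjusted p = 0.00217). Water replicates 1 and 4 carried the high S100a9 values, and water replicate 2 lay below syngeneic replicate 2. Several granule genes of the list, Ly6g, Camp, Elane and Mpo among them, were not tested because they did not pass the floor on counts.

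Plasma cell transcripts were present in water libraries at uneven levels, and of 9 B cell and plasma cell genes tested 4 rose and none fell (median 3.84). Igkc, an immunoglobulin light chain, was at 0.562, 0.904, 0.433 and 0.178 CPM in syngeneic and 13.5, 19.1, 148 and 81.8 CPM in water libraries (7.0 ± 1.79, adjusted p = 0.00477). Igha, the IgA heavy chain, was at 0.691, 2.57, 2.5 and 1.25 CPM and 22.7, 41.7, 309 and 157 CPM (6.25 ± 1.67, adjusted p = 0.0062), and Jchain, which joins IgA and IgM units, at 0.173, 0.714, 0.336 and 0.214 CPM and 5.11, 6.93, 58.9 and 32.1 CPM (6.17 ± 1.72, adjusted p = 0.00805). Water replicate 3 was the highest for all 3, followed by replicate 4. With water replicates 1 and 2 alone, neither Igha nor Jchain was called. Cd79a and Ms4a1, which mark B cells, did not pass the floor.

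Dendritic and mast cell genes were called no more often than all symbols, except for rises in the first list. Of 12 dendritic and Langerhans cell genes 4 rose and 1 fell: the migration receptor Ccr7 rose (3.57 ± 0.76, adjusted p = 0.00126), as did the endocytic receptor Ly75 (2.76 ± 0.37, adjusted p = 1.33e-05) and Itgax (2.46 ± 0.65, adjusted p = 0.00579), while Cd209a, a lectin of dermal dendritic cells, fell from 12.2 to 24 CPM to 1.11 to 2.91 CPM (-3.35 ± 0.69, adjusted p = 0.000866). Of 11 mast cell genes 2 rose and 1 fell. Hdc, which makes histamine, was at 5.62, 4.52, 3.03 and 4.17 CPM and 16.5, 13.6, 15.8 and 34.5 CPM (2.21 ± 0.44, adjusted p = 0.000626), whereas Mrgprb2, a receptor of connective tissue mast cells, was at 14, 15.1, 16.7 and 19.8 CPM and 1.83, 4.62, 3.15 and 1.63 CPM (-2.54 ± 0.34, adjusted p = 1.42e-05). The mast cell protease Cma1 ranged over 30.4 to 55.8 CPM and 11.1 to 29.3 CPM and was not called (-0.96 ± 0.58, adjusted p = 0.193). Fcer1a was called (2.55 ± 0.87, adjusted p = 0.026) but lost its call without syngeneic replicate 1 or 3 or water replicate 2.

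Chemokines and the IL-1 family are the ligands and receptors through which these cells are recruited and activated. Of 25 chemokines 17 rose and 2 fell (median 2.85). Ccl8, a ligand for monocytes and type 2 T cells, was at 41.7, 67.8, 47.1 and 34.1 CPM in syngeneic and 671, 833, 815 and 885 CPM in water libraries (4.07 ± 0.36, adjusted p = 6.89e-08), and the monocyte chemokine Ccl7 rose with it (3.24 ± 0.46, adjusted p = 2.84e-05). The 2 that fell were the eosinophil chemokine Ccl24 (-2.95 ± 0.52, adjusted p = 0.000245) and the keratinocyte chemokine Ccl27a (-2.30 ± 0.41, adjusted p = 0.000281).

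Of 26 IL-1 family genes 15 rose and 2 fell (median 0.82). The epidermal ligand Il36a was at 0.0864, 0.143, 0.961 and 1.43 CPM and 19.4, 9.85, 11.9 and 26 CPM (4.64 ± 0.75, adjusted p = 0.000102), and its relative Il36g at 10.3, 10.1, 20.3 and 28.3 CPM and 124, 88.2, 72.4 and 153 CPM (2.66 ± 0.49, adjusted p = 0.00033). Both were highest in water replicate 4, with no overlap between groups. Il1b was at 1.12, 2.86, 4.9 and 1.5 CPM and 3.21, 4.46, 9.91 and 53 CPM (2.77 ± 0.88, adjusted p = 0.0179), groups that overlapped, and it was not called without water replicate 4 or syngeneic replicate 1 or 4. Il33 was at 41.6, 56.5, 69.6 and 67.9 CPM and 55.9, 24.9, 56.4 and 146 CPM and Il1a at 9.25, 8.09, 10.7 and 15.8 CPM and 17.5, 20.3, 14.3 and 25.6 CPM, and neither passed the test (0.27 ± 0.46, adjusted p = 0.672 and 0.83 ± 0.34, adjusted p = 0.0587).

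On the receptor side, Il1rap, the co-receptor shared by IL-1, IL-33 and IL-36, was at 15.6, 19.7, 20.2 and 20.2 CPM in syngeneic and 25.7, 35.9, 20.1 and 27.7 CPM in water libraries (0.53 ± 0.16, adjusted p = 0.0142), groups that overlapped, and the call was lost without syngeneic replicate 1 or water replicate 2. The adaptors Myd88 (1.13 ± 0.15, adjusted p = 9.5e-06) and Traf6 (1.31 ± 0.18, adjusted p = 1.93e-05) rose, and so did Il1rn, the receptor antagonist, from 36.3, 42.8, 66 and 58 CPM to 77.2, 86, 71.3 and 125 CPM (0.82 ± 0.20, adjusted p = 0.00304). Of 23 genes that NF-kB or IL-1 is known to induce, 16 rose and none fell (median 1.30), with Tnf at 0.605, 1.62, 1.68 and 1.28 CPM and 5.63, 11.3, 5.93 and 13.8 CPM (2.82 ± 0.47, adjusted p = 0.000131) and Bcl3 at 15.9 to 20.8 CPM and 47.8 to 113 CPM (2.03 ± 0.31, adjusted p = 6.31e-05). Cxcl1 did not pass the test (1.11 ± 0.57, adjusted p = 0.128), and Il6 did not pass the floor.

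The epidermis showed the keratins and envelope proteins of activated keratinocytes. Of 18 activated keratinocyte genes 14 rose and 1 fell (median 5.46). Krt16 was at 18, 19.6, 27.1 and 23.9 CPM in syngeneic and 3584, 574, 770.5 and 3553 CPM in water libraries (6.58 ± 0.78, adjusted p = 2.99e-06), and Krt6b at 8.77, 11.7, 7.64 and 6.92 CPM and 2498, 712, 1177 and 4136 CPM (7.93 ± 1.08, adjusted p = 1.61e-05). These partner keratins of wounded and hyperproliferative epidermis were highest in water replicates 1 and 4, and the lowest water library was far above the highest syngeneic one. Krt6a, also present in the hair follicle, was at 118, 106, 129.7 and 87.2 CPM and 1614, 568, 693 and 2464 CPM (3.60 ± 0.49, adjusted p = 1.57e-05). Ereg, an EGF receptor ligand, rose with less spread (3.11 ± 0.34, adjusted p = 1.06e-06). The member that fell was Defb14, whose levels stood apart by counting run.

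Stefins, which inhibit cysteine proteases, and chitinase-like proteins held several of the largest rises. Of 10 stefin and cystatin genes 6 rose and 1 fell (median 7.54). Cstdc5 was at 0.302, 0.0476, 2.21 and 2.96 CPM in syngeneic and 1483, 440.2, 678 and 1913 CPM in water libraries (9.65 ± 1.66, adjusted p = 0.000175), Stfa3 over 0.864 to 3.14 CPM and 297 to 949 CPM (8.23 ± 1.39, adjusted p = 0.000151), and Stfa2 at 0, 0.0952, 0 and 0 CPM and 138, 23.3, 13.2 and 92.6 CPM (adjusted p = 3.45e-05 from the same test). The syngeneic value of Stfa2 rests on 2 reads, and the ratio of summed counts was 2980-fold, with a 95% counting interval of 825-fold to 24618-fold that covers counting error only. These stefins are near-identical copies, so reads may have been split between them. Chil3, a secreted chitinase-like protein of myeloid cells, had no read in any syngeneic library and was at 24, 27.9, 6.82 and 14.7 CPM in the water libraries, at least 569-fold higher against a floor of 3 counts over the syngeneic group. Its paralog Chil4 was likewise at 0 and at 51.8, 3.03, 1.54 and 9.2 CPM, at least 509-fold higher, and Il24, a cytokine of activated keratinocytes, at 0 and at 3.27, 2.42, 2.25 and 10.2 CPM, at least 141-fold higher.

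The other genes among the 8 largest rises were Gvin3 and Ifi213, 2 interferon-inducible genes, and Akr1d1, a steroid reductase. All 3 had no read in any syngeneic library and were at 15.9, 13, 19 and 9.81 CPM, 17.2, 13.2, 16.5 and 10.2 CPM and 13.5, 3.85, 8.66 and 27.6 CPM in the water libraries, at least 448-fold, 443-fold and 415-fold higher against the same floor. Gvin3 and Ifi213 belong to families of near-identical copies. Both were detected in every allogeneic library of the series, at 1.54 to 4.52 CPM and 4.07 to 21.1 CPM in the anti-IL1RAP group, whereas Akr1d1 was at 0 to 0.0844 CPM there. Donor strain coincides with the groups, and its part was not tested. A symbol without syngeneic reads could pass the floor of the first run only through its isotype or anti-IL1RAP libraries. This holds for Chil3, Chil4, Il24, Gvin3, Ifi213 and Akr1d1, so their presence in another allogeneic group was set by the rule. Symbols high in water libraries but almost without reads in the first run were not tested.

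Differentiation genes of the upper epidermis were higher in 17 of 26 tested and lower in 1 (median 1.29), a count of rises that fell to 11 without water replicate 4. Flg, which forms the keratin-binding filaggrin, ranged over 33.7 to 71.6 CPM in syngeneic and 632 to 1703 CPM in water libraries (4.35 ± 0.64, adjusted p = 3.91e-05), Hrnr over 28.5 to 75.8 CPM and 404 to 834 CPM (3.49 ± 0.56, adjusted p = 0.000102) and the desmosomal cadherin Dsc1 over 67.5 to 86.7 CPM and 263 to 550.2 CPM (2.32 ± 0.26, adjusted p = 1.19e-06). Of 12 basal keratinocyte and hemidesmosome genes 5 rose and 1 fell. Krt14, the basal keratin, was at 1753, 1834, 3543 and 3059.6 CPM and 6124, 7000.2, 6105 and 8830.0 CPM (1.46 ± 0.37, adjusted p = 0.00469). Krt15, a basal keratin known for hair follicle stem cells, fell from 2037, 2229, 3389 and 2324 CPM to 428, 189, 313 and 178 CPM (-3.17 ± 0.59, adjusted p = 0.000344). Cell cycle genes were called higher for 7 of 28, near the share of all symbols (21%), and lower for 1. Among the 7 were the replication genes Mcm6 (1.06 ± 0.29, adjusted p = 0.00779) and Rrm2 (1.26 ± 0.36, adjusted p = 0.0101). The 7 became 2 without syngeneic replicate 4 or water replicate 2, 3 without water replicate 4 and 4 without syngeneic replicate 1.

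**Figure D3:**
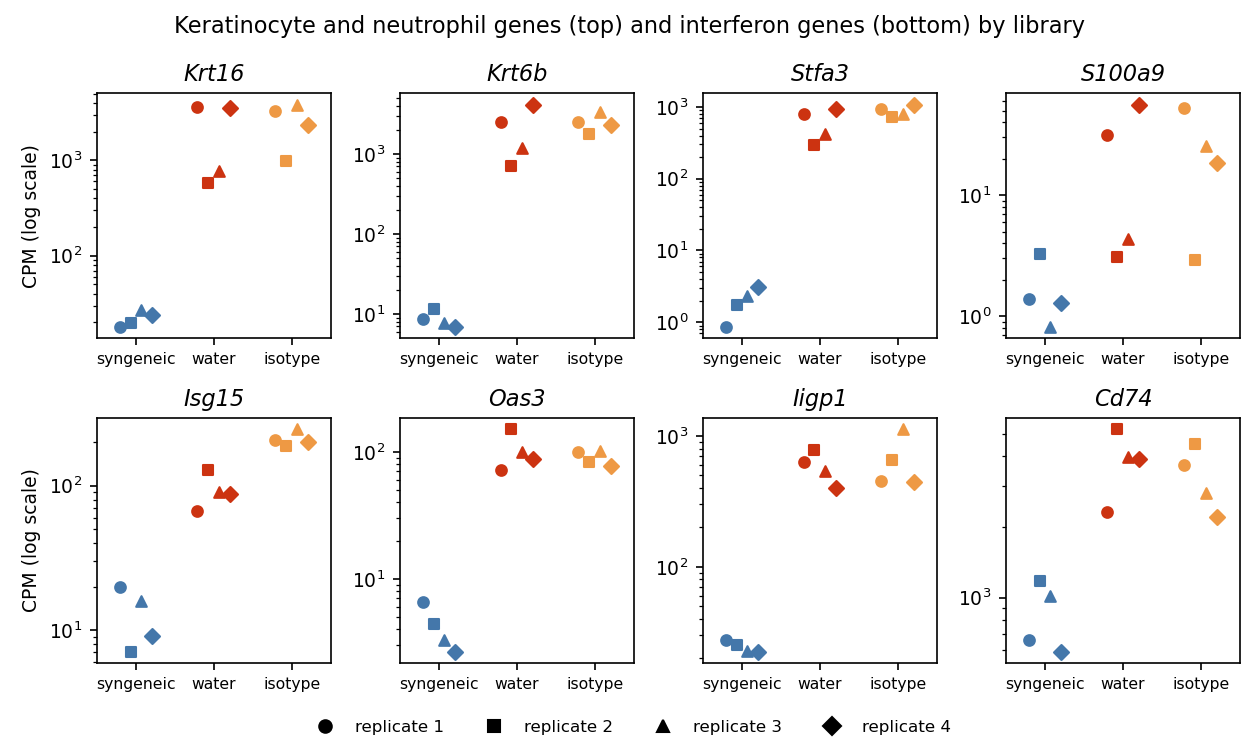
CPM on a log scale in each syngeneic, water-treated allogeneic and isotype-treated allogeneic library, for 4 keratinocyte and neutrophil genes (top) and 4 interferon-induced genes (bottom), with 1 symbol shape per replicate number (numbers do not link groups). Water replicates 1 and 4 are the highest of their group in the top row, for example for Krt16, whereas replicate 2 is the highest in the bottom row.

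The 4 water libraries did not share 1 order. Krt16, Krt6b, Cstdc5, Stfa2, S100a9 and Chil1 were each higher in replicates 1 and 4 than in replicates 2 and 3, whereas Stat2, Oas3, Isg15, Cxcl10 and Iigp1 were highest in replicate 2. Chil1 was at 39.7, 5.83, 4.93 and 34.2 CPM against 3.93, 1.71, 2.21 and 1.46 CPM in syngeneic libraries (3.18 ± 0.68, adjusted p = 0.00125). The mean log2 CPM of the activated keratinocyte list was 6.46, 4.81, 5.22 and 6.61 in the 4 water libraries, and that of the interferon-stimulated list 5.85, 6.55, 6.23 and 5.87. A note on 2 sequencing lanes applies to replicates 1 and 2, which lie on opposite sides of both patterns. These orders were seen in the values and were given no test.

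Sebaceous gland genes were lower. Of 16 tested none rose and 9 fell (median -2.21). Scd3, a fatty acid desaturase of sebocytes, was at 78.9, 114, 255 and 119 CPM in syngeneic and 2.95, 0.44, 1.25 and 1.03 CPM in water libraries (-6.66 ± 0.68, adjusted p = 4.08e-07). Awat2, a wax synthase, ranged over 14.7 to 67.3 CPM and 0.415 to 0.727 CPM (-5.88 ± 0.68, adjusted p = 2e-06), and Fa2h, a fatty acid hydroxylase, over 85 to 231 CPM and 2.85 to 9.29 CPM (-4.91 ± 0.89, adjusted p = 0.000293). Far2, which reduces fatty acids to the alcohols of wax esters, was at 70.1, 89.3, 212 and 99.1 CPM and 5.17, 2.15, 1.6 and 1.39 CPM (-5.52 ± 0.66, adjusted p = 3.1e-06). Syngeneic replicate 3 was the highest for all 4 genes and every water library lay far below every syngeneic one.

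Lipid synthesis as a whole did not follow, with a share of falls near that of all symbols. Of 23 cholesterol and fatty acid synthesis genes 3 rose and 5 fell (median -0.27), and none rose without water replicate 4, 1 rose without syngeneic replicate 1 or 2, and 3 fell without syngeneic replicate 3 or 4 or water replicate 2 or 3. Elovl6, a fatty acid elongase, fell from 188 to 463 CPM to 36.9 to 57.6 CPM (-2.57 ± 0.51, adjusted p = 0.00064), and the mevalonate enzymes Mvd and Fdps fell from 28.6, 35.7, 44.4 and 42.4 CPM to 18.2, 13.8, 16.1 and 16.2 CPM (-1.23 ± 0.23, adjusted p = 0.000331) and from 148, 148, 220.4 and 241 CPM to 111, 119, 114 and 116 CPM (-0.72 ± 0.20, adjusted p = 0.00855). Of the genes that rose, Idi1, the isomerase between these enzymes, went from 11.3, 12.9, 12.9 and 11.2 CPM to 26.3, 20.3, 16.7 and 31.7 CPM (0.98 ± 0.30, adjusted p = 0.0153).

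Of the 8 genes with the largest falls among genes that were called, did not overlap and reached 1 CPM (predicted names left out), 5 went to or near 0 in water libraries. Cyp2g1, a cytochrome P450, was at 107, 77.1, 233 and 81.5 CPM in syngeneic and 0.72, 0.165, 0 and 0.363 CPM in water libraries (-8.66 ± 1.38, adjusted p = 8.54e-05). Serpinb6e, a serine protease inhibitor, was at 10.1, 13.9, 40.3 and 9.84 CPM and 0.0655, 0, 0 and 0.0606 CPM (adjusted p = 4.65e-06), and the steroid dehydrogenase Hsd3b6 at 6.61, 6.85, 20.3 and 6.38 CPM and 0.131, 0, 0 and 0 CPM (adjusted p = 0.000331). The related deacetylases Aadacl4 and AAdacl4fm3 fell from 4.67, 9.71, 20.1 and 7.84 CPM to 0.196, 0, 0 and 0 CPM (adjusted p = 0.00018) and from 5.01, 8.47, 22.5 and 12.2 CPM to 0.0655, 0, 0 and 0 CPM (adjusted p = 5.32e-05). The water values of Serpinb6e, Hsd3b6, Aadacl4 and AAdacl4fm3 rest on 2, 2, 3 and 1 reads. Their ratios of summed counts, syngeneic over water, were 589, 323, 227 and 795, with lower 95% counting bounds of 163, 89.0, 77.6 and 142 and upper bounds of 4868, 2668, 1105 and 31410. Each of the 5 was highest in syngeneic replicate 3, as Scd3 was. The other 3 were Aldoa, S100a6 and Myhas, described with the counting runs. With so few water reads, Serpinb6e, Hsd3b6, Aadacl4 and AAdacl4fm3 could pass the floor of the second run only through nintedanib libraries. Symbols with almost no reads in either group of that run were not tested, so the ranking leaves them out.

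Hair follicle keratins depended on single libraries. Of 13 hair follicle genes none rose and 1 fell although the median was 1.98. Krt71, of the inner root sheath, was at 0.173, 0.0476, 0.769 and 0.463 CPM in syngeneic and 0.196, 0.495, 137 and 9.87 CPM in water libraries and Krt25 at 0.13, 0.0952, 0.192 and 0.0357 CPM and 0.0655, 0.11, 85.2 and 5.63 CPM, and neither passed the test (6.64 ± 3.04, adjusted p = 0.0884 and 7.62 ± 3.42, adjusted p = 0.0819). Only water replicates 3 and 4 were above the syngeneic libraries for both.

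Fibroblast identity genes were lower. Of 18 tested 7 fell and 1 rose (median -1.01). Dpt, a dermal matrix protein, was at 536, 517, 439 and 554 CPM in syngeneic and 54.8, 44.4, 152 and 54.5 CPM in water libraries (-2.74 ± 0.46, adjusted p = 0.000133), Pi16, a marker of adventitial fibroblasts, at 297, 447, 525 and 568 CPM and 87.8, 49.8, 48 and 62.5 CPM (-2.89 ± 0.54, adjusted p = 0.000408), and Cd34 at 273, 349, 342 and 326 CPM and 68.9, 47, 46.1 and 36 CPM (-2.70 ± 0.30, adjusted p = 1.06e-06). No water library reached a syngeneic one for these 3 genes. Pdgfra, a receptor of most dermal fibroblasts, ranged over 44.4 to 61.8 CPM and 13.3 to 44.9 CPM and did not pass the test (-1.08 ± 0.45, adjusted p = 0.0652). The member that rose was Ly6a (1.55 ± 0.33, adjusted p = 0.00121), an interferon-responsive surface protein.

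The main chains of collagens I and III were not called. Col1a1 was at 1259.8, 1111, 1568 and 913 CPM in syngeneic and 593, 529.8, 1097 and 1112 CPM in water libraries (-0.54 ± 0.56, adjusted p = 0.463), Col3a1 at 2183, 1824, 1772 and 1511 CPM and 777, 596, 1728 and 1082 CPM (-0.80 ± 0.49, adjusted p = 0.2), and Col1a2 gave -0.90 ± 0.49, adjusted p = 0.15. Of 20 collagens 3 rose and 2 fell (median -0.42). Col12a1, a collagen of tissue under tension, rose from 31.4, 40.3, 25.1 and 28.6 CPM to 94.1, 140.1, 132 and 208 CPM (2.19 ± 0.40, adjusted p = 0.000319), while Col5a3 fell from 192, 119, 127 and 169 CPM to 21.6, 24.8, 78.7 and 50.1 CPM (-1.79 ± 0.43, adjusted p = 0.00299) and Col15a1, of basement membranes, fell (-1.77 ± 0.38, adjusted p = 0.00139). Without water replicate 3 the number that fell was 4.

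Of 34 matrix and cross-linking genes 8 rose and 3 fell (median 0.03), a share of rises near that of all symbols. Tnc, the tenascin of wounds, was at 13, 11.5, 10.3 and 7.99 CPM in syngeneic and 95.1, 181, 166 and 344 CPM in water libraries (4.20 ± 0.51, adjusted p = 3.95e-06), Thbs1, an activator of latent TGF-beta, at 35.2, 41.3, 47.6 and 51.2 CPM and 183, 262, 267 and 254 CPM (2.46 ± 0.31, adjusted p = 7.07e-06), and the collagenase Mmp13 at 0.173, 0.238, 0.288 and 0.178 CPM and 13.3, 6.49, 17.3 and 116 CPM (7.42 ± 1.53, adjusted p = 0.00092). Water replicate 4 was the highest for Tnc and Mmp13. Of the members that fell, Fap went from 18.7 to 27 CPM to 5.61 to 14.6 CPM (-1.41 ± 0.30, adjusted p = 0.00123), and the number that fell was 1 without water replicate 1 and 5 without water replicate 3. Fn1 and Acta2, the actin of myofibroblasts, were not called (0.45 ± 0.61, adjusted p = 0.581 and -0.10 ± 0.32, adjusted p = 0.831). In the TGF-beta pathway 10 of 26 genes rose and 4 fell (median 0.05), among them the receptor Tgfbr1 (0.63 ± 0.13, adjusted p = 0.000876), the signal transducer Smad2 (0.57 ± 0.11, adjusted p = 0.000698) and the negative regulator Skil (1.63 ± 0.16, adjusted p = 2.7e-07).

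Nerve genes were lower, whereas few fat genes and no muscle gene passed the test. Of 14 Schwann cell and nerve genes 7 fell and none rose (median -0.74), a count of 4 without syngeneic replicate 1 or water replicate 2 or 4. Mbp, a myelin protein, was at 404, 209, 168 and 191 CPM in syngeneic and 125, 77.5, 91.9 and 105 CPM in water libraries (-1.28 ± 0.32, adjusted p = 0.00412), highest in syngeneic replicate 1. Of 17 adipocyte genes 2 were called lower (median -2.05), fewer than the share of all symbols. Yet 11 of the 17 had every water library below every syngeneic one, against 22.8% of all symbols. Adipoq, the hormone adiponectin, was at 938, 382, 307 and 276 CPM and 84.3, 5.01, 124 and 79.3 CPM (-2.70 ± 1.04, adjusted p = 0.045), a call lost without any 1 of the 8 libraries, and Pparg was at 96.7, 34.5, 26.4 and 21.5 CPM and 12.9, 1.98, 20.0 and 8.48 CPM (-2.05 ± 0.70, adjusted p = 0.0257), a call lost without syngeneic replicate 1 or water replicate 2 or 4. No muscle gene of 21 was called (median -0.85). Adipocyte genes made up 0.665% to 2.29% of kept counts in syngeneic and 0.169% to 0.587% in water libraries (exact 2-sided permutation p = 0.0286, the smallest that 4 against 4 can give, adjusted over 8 such quantities 0.0762), and for muscle genes the exact p was 0.114.

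Of 18 endothelial genes 3 rose and 3 fell, shares below those of all symbols, and 1 fell without syngeneic replicate 4 or water replicate 2 or 4. Sele, the adhesion molecule of inflamed endothelium, rose (1.92 ± 0.40, adjusted p = 0.00103), as did Lyve1, of lymphatic vessels (1.34 ± 0.38, adjusted p = 0.0092), while Ackr1, of venules, fell (-1.24 ± 0.21, adjusted p = 0.000153) and Tek was called lower (-1.21 ± 0.40, adjusted p = 0.0227) but not without syngeneic replicate 4 or water replicate 2 or 4. Of 19 immediate early genes 10 rose and none fell (median 0.66), among them Junb (1.42 ± 0.24, adjusted p = 0.00019), a count of 5 without syngeneic replicate 1 and of 6 without syngeneic replicate 4 or water replicate 4. Of 13 heat shock genes 6 rose and 2 fell, with the chaperone Hspa8 at 546 to 677 CPM and 1134 to 1447 CPM (1.04 ± 0.17, adjusted p = 0.0001). Of 24 housekeeping genes 5 rose and 4 fell (median 0.10), shares near those of all symbols, and Gapdh (-0.25 ± 0.45, adjusted p = 0.678) and Actb (-0.15 ± 0.22, adjusted p = 0.62) were not called.

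A second comparison asked whether the other allogeneic control, given the isotype antibody, differed from syngeneic skin in the same genes. Compared with the same syngeneic libraries it had 26.5% of symbols called, 15.8% higher and 10.7% lower. Both comparisons share the 4 syngeneic libraries, so their values are given side by side only. Isotype-treated skin had 31 interferon-stimulated genes higher where water-treated skin had 30, 23 interferon-gamma axis genes where water had 24, 14 activated keratinocyte genes where water had 14, and 6 sebaceous genes lower where water had 9. Counts lay further apart for the TGF-beta pathway, with 4 higher and 6 lower with isotype and 10 and 4 with water, for the matrix list, with 5 and 6 against 8 and 3, and for cell cycle genes, with 3 higher against 7. Of the ribosomal protein genes none fell with isotype and 6 with water, and of the cholesterol and fatty acid list 1 fell with isotype and 5 with water. Both counts with water, of 27 and 23 genes, were near the 19.8% of all symbols lower in that comparison, a share above the 10.7% with isotype. These differences between counts were not tested. In the test between the 2 allogeneic groups below, 3 of 26 TGF-beta, 1 of 34 matrix and 0 of 28 cell cycle genes were higher with water. Lower with water were 0, 0 and 1 of them, 5 of 27 ribosomal protein genes and 1 of 23 cholesterol and fatty acid genes. The median log2 fold change of the cell cycle list was 0.95 with isotype and 0.78 with water. For Stat2 the log2 fold changes were 2.39 ± 0.30 with water and 2.42 ± 0.30 with isotype, for Krt16 6.58 ± 0.78 and 6.88 ± 0.79, for Scd3 -6.66 ± 0.68 and -5.71 ± 0.64, for Dpt -2.74 ± 0.46 and -2.40 ± 0.45, for Tnc 4.20 ± 0.51 and 3.99 ± 0.50, and for Mbp -1.28 ± 0.32 and -1.50 ± 0.32.

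**Figure D4:**
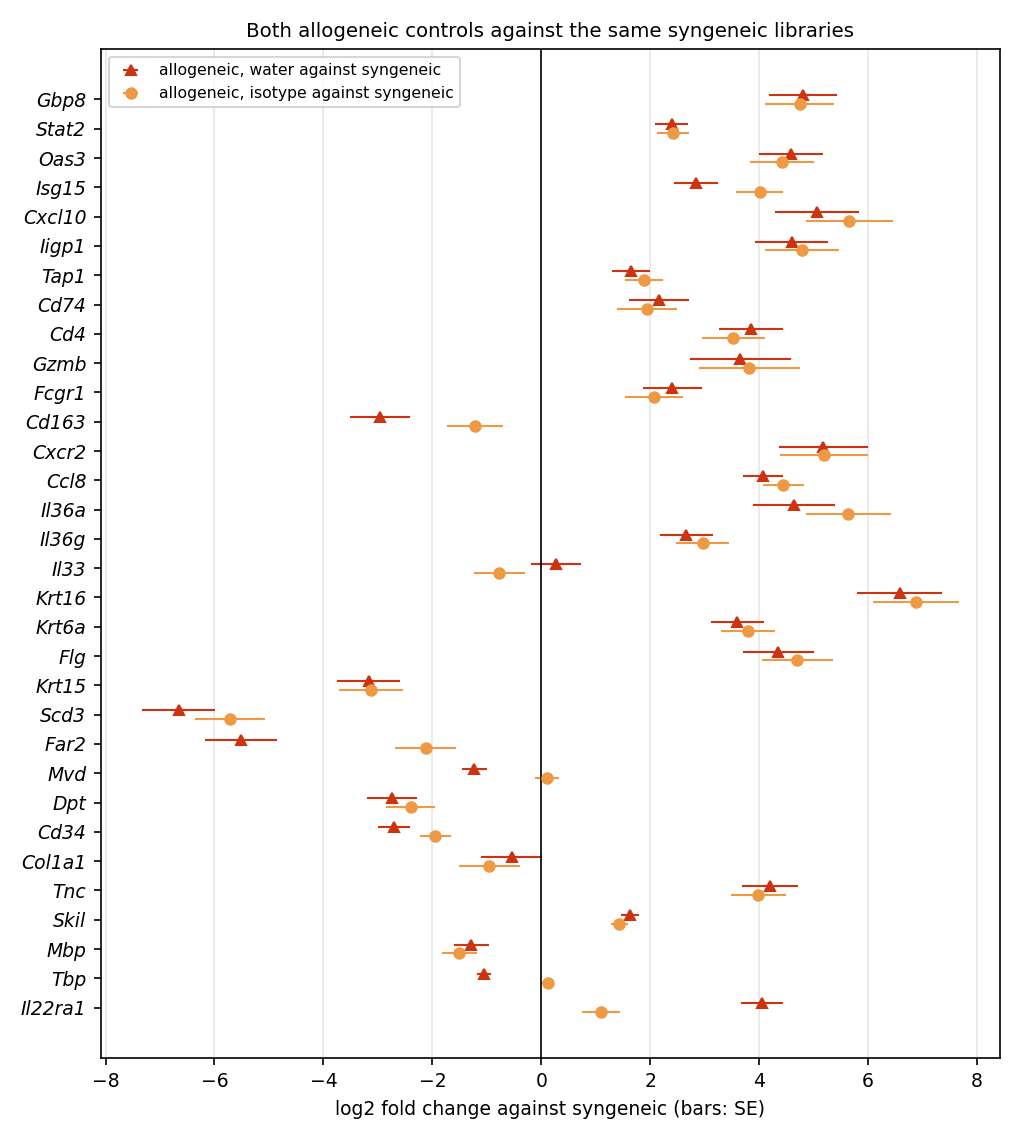
Log2 fold change (bars are SE) of 32 genes against the same 4 syngeneic libraries, for water-treated allogeneic skin (triangles) and isotype-treated allogeneic skin (circles). Stat2 lies at 2.39 and 2.42 and Krt16 at 6.58 and 6.88, whereas Tbp lies at -1.06 with water and 0.12 with isotype.

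The difference between the 2 allogeneic groups was itself tested, with agent given and counting run coinciding. Of all symbols 11.4% were called, 2.84% (406) higher and 8.53% (1220) lower with water. Of the interferon-stimulated, interferon-gamma axis and NF-kB lists, none of the 34, 28 and 23 genes was called. Among T cell genes 2 of 20 were called, both lower. For Stat2 the difference was -0.02 ± 0.28, adjusted p = 0.981, for Krt16 -0.29 ± 0.61, adjusted p = 0.857 and for Tnc 0.21 ± 0.45, adjusted p = 0.859. These p-values do not show that the groups were alike.

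A few genes of the disease lists did differ between the 2 allogeneic groups. Chil3 was at 24, 27.9, 6.82 and 14.7 CPM with water and 74.7, 71.6, 88.2 and 90.3 CPM with isotype (-2.14 ± 0.45, adjusted p = 0.00391). Cd163 was at 5.83, 10.7, 6.82 and 4.6 CPM and 17.8, 20.7, 30.3 and 25.2 CPM (-1.74 ± 0.54, adjusted p = 0.0408), a call lost without isotype replicate 2, 3 or 4 or water replicate 1, 3 or 4. Far2 was at 5.17, 2.15, 1.6 and 1.39 CPM and 47.4, 18.8, 23.5 and 18 CPM (-3.39 ± 0.60, adjusted p = 0.000494), and Mvd at 18.2, 13.8, 16.1 and 16.2 CPM and 40.0, 32.9, 47.2 and 41.7 CPM (-1.33 ± 0.23, adjusted p = 0.000306). Far2 was at 54.9 to 319 CPM in nintedanib libraries, which share the counting run of the water group, and Mvd was at 14.3 to 30.4 CPM there, Chil3 at 0.766 to 2.53 CPM and Cd163 at 5.28 to 16.8 CPM. Rfx5 (-0.50 ± 0.13, adjusted p = 0.0158) and Hspe1 (-0.86 ± 0.16, adjusted p = 0.000763) were lower with water and Hspa8 (0.54 ± 0.17, adjusted p = 0.0416) was higher. The Rfx5 call was lost without isotype replicate 1 or water replicate 1, and the Hspa8 call without isotype replicate 1 or 4 or water replicate 2, 3 or 4.

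Many of the largest differences between the 2 allogeneic groups stood apart by counting run, Myhas and Cyp4f37 being exceptions. For 922 symbols (6.45%) all 9 libraries of the second run lay on 1 side of all 12 of the first, 187 (1.31%) higher and 735 (5.14%) lower. Aldoa, a glycolytic enzyme, was at 7559, 8931, 6537 and 9441 CPM in syngeneic, 1016 to 8620.0 CPM in isotype, 19.9, 13.5, 18.2 and 17.5 CPM in water and 9.82 to 17 CPM in nintedanib libraries. S100a6, a calcium-binding protein, was at 318 to 625 CPM in syngeneic and 274 to 425 CPM in isotype libraries, but at 0.475 to 1.94 CPM in water and 0.471 to 1.74 CPM in nintedanib libraries. The kinase gene Ulk4 (-7.01), Ugt1a6b (-6.96) and Ccdc152 (-6.91) were the next largest falls on the log2 scale among genes without overlap between the 2 groups (predicted names left out). Among the 5 largest rises were Klhl11, at 0.664 to 1.65 CPM and 23.6 to 27.8 CPM (4.53 ± 0.37, adjusted p = 1.87e-08), Atp7a, a copper transporter (4.21 ± 0.46, adjusted p = 9.84e-07), Mfsd4a (4.19 ± 0.29, adjusted p = 2.11e-09), Prrg4 (3.71 ± 0.38, adjusted p = 4.46e-07) and Cyp4f37 (4.38 ± 0.95, adjusted p = 0.0033), of which Cyp4f37 was not called against syngeneic skin.

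Some members of the lists above belong to this set. The transcription factor Tbp was at 35.6 to 39.3 CPM in syngeneic and 16.5 to 19 CPM in water libraries (-1.06 ± 0.13, adjusted p = 3.55e-06), Smad4, the common partner in TGF-beta signalling, at 43.8 to 54.4 CPM and 85 to 96.2 CPM (0.91 ± 0.10, adjusted p = 6.67e-07), and the cytokine receptor Il22ra1 at 4.04 to 11 CPM and 84.1 to 132 CPM (4.05 ± 0.39, adjusted p = 1.94e-07). Nintedanib libraries lay with the water libraries for all 3. Of 27 ribosomal protein genes 6 fell against syngeneic skin, a share near that of all symbols, and none rose. Against isotype-treated skin 5 fell, and none was called between isotype-treated and syngeneic skin. No gene of the interferon-stimulated, interferon-gamma axis, MHC, sebaceous, fibroblast or collagen lists stood apart by run. Myhas, an antisense RNA of the myosin heavy chain cluster, was at 230.3, 263, 359 and 752 CPM in syngeneic, 0.101 to 1515 CPM in isotype, 4.39, 2.26, 0.712 and 0.424 CPM in water and 0.794 to 2.69 CPM in nintedanib libraries, and the library kit does not mark strand, so its reads and those of the myosin genes cannot be told apart.

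**Figure D5:**
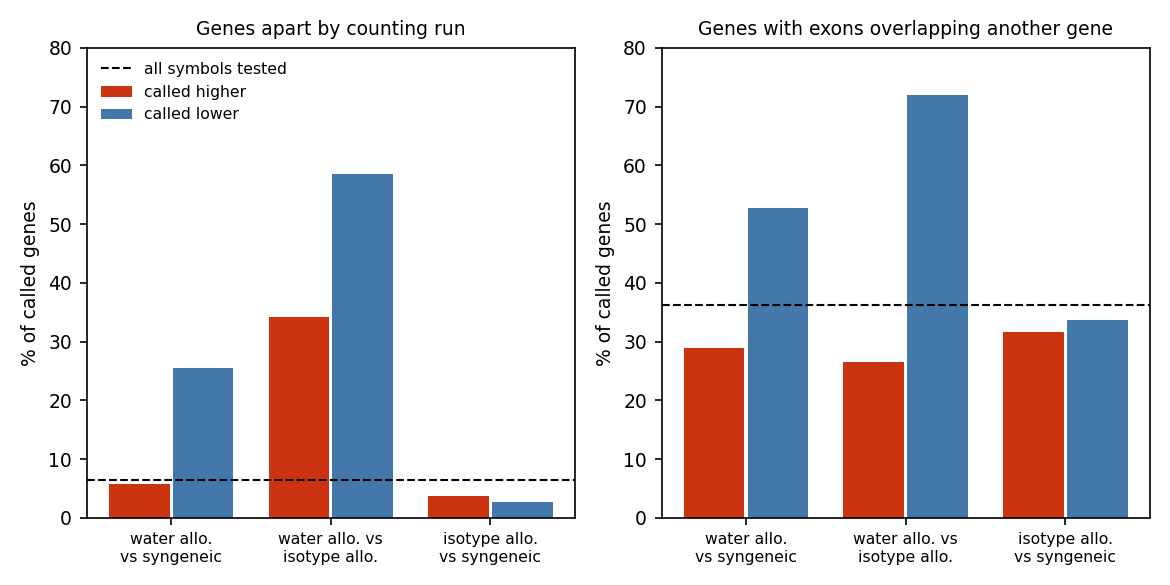
Share of the genes called higher (red) and lower (blue) in 3 comparisons that stood apart by counting run (left) or had exons overlapping those of another gene in an older annotation (right), with dashed lines at the share over the symbols tested (left) or matched (right). Among genes lower in water-treated than in syngeneic skin 25.5% stood apart by run, against 5.80% of the genes that were higher.

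The falls carried more of these genes than the rises, with 735 symbols lower by run and 187 higher. The definition does not set that direction, but it largely sets that a gene apart by run is called in its own direction. A gene apart by run cannot overlap between water and syngeneic libraries. Of the 735 symbols lower by run 723 were called lower than in syngeneic skin, and of the 187 higher by run 174 were called higher. Of the genes lower in water-treated than in syngeneic skin 25.5% stood apart by run, and of those higher 5.80%. Between isotype-treated and syngeneic skin, both of the first run and so not split by the definition, the shares were 2.75% and 3.71%. Exons overlapped another gene's exons for 36.2% of matched symbols, for 80.6% of the symbols lower by run and for 33.9% of those higher by run. The overlap share was 52.8% among genes lower in water-treated than in syngeneic skin and 28.9% among those higher. Without the symbols that stood apart by run, 4716 were called, 2563 higher and 2153 lower, and without overlapping or unmatched symbols 3256 were called, 1827 higher and 1429 lower.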

How the data were processed

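Poly(A) RNA from mouse skin was sequenced after unstranded library preparation, per the labels' protocols, so reads of overlapping or antisense genes are not separable. The authors deposited raw read counts by gene symbol, made with FastQC, Trimmomatic, STAR and featureCounts on GRCm39, per the submitters' processing notes. What versions, settings and annotation they used was not given in the sources used here. Of 64050 symbols 21830 had counts in both counting runs, 12094 in the first only and 6185 in the second only. Symbols with a mean count of at least 20 in both runs (14300) were fitted with edgeR 4.0.16 (R 4.3.3), using TMM factors and quasi-likelihood tests over all 21 libraries with a mean per group, and Benjamini-Hochberg adjusted p-values. Total counts of 17424792 to 32899212 per library limit the precision of genes near the floor. CPM use library sizes over the kept symbols. Counts of 0 were bounded with a floor of 3 counts, and for groups with 1 to 3 counts the ratio of summed counts was given with an exact (Clopper-Pearson) interval.

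The 42 gene lists and the members were chosen with earlier results of these data known. Named genes were the 8 largest changes in each direction against syngeneic and the 5 largest against isotype-treated skin (at least 1 CPM, no overlap, predicted names left out), up to 4 members per list with the lowest p, and a fixed set of 24. Ifng, Ccl24, Ccl27a and members named only as exceptions or as below the floor were chosen after their values were seen. Some genes that the rule names are not reported here. Exon overlap came from GENCODE M21 (GRCm38), matched by symbol for 14040 of 14300 symbols. Calculations were checked on simulated counts. No 2 libraries of a group were alike within sampling noise (chi-square per degree of freedom of 36.6 or more). Alternatives were RLE factors, other floors, filterByExpr, a fit of only the compared groups, DESeq2 1.42.0, a replicate block, a test against a 1.5-fold change, other library sizes, muscle or hair follicle content as covariates, subsets of water libraries, both allogeneic controls averaged and leaving out each library. Figures were drawn with matplotlib 3.10.9.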

Additional observations from a re-analysis of the deposited data

Results flagged for a closer look

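A single library stood far from the other 3 of its group in 27 of 286 groups of 4 that were looked at (Dixon's test at the 95% level). Of these, 10 were in syngeneic and 17 in water libraries. Chance gives about 1 in 20 for normally distributed values, which CPM need not be. A group with reads in only 1 library is always flagged, as for AAdacl4fm3, Aadacl4 and Hsd3b6 in water and Stfa2 in syngeneic libraries. Water replicate 4 was apart for Il1b (52.98 CPM), Mmp13 (116 CPM), Hdc (34.5 CPM), Skil (60.01 CPM), Il24 (10.2 CPM) and Cxcl1 (2.54 CPM). Water replicate 3 was apart for the hair keratins Krt71 (137 CPM) and Krt25 (85.2 CPM), for Dpt (152 CPM) and for the hair follicle share of kept counts (0.0459%). Water replicate 1 was the highest for Chil4 (51.8 CPM), Fa2h (9.29 CPM), AAdacl4fm3 (0.0655 CPM), Aadacl4 (0.196 CPM) and Hsd3b6 (0.131 CPM) and the lowest for Thbs1 (183 CPM), and water replicate 2 was the highest for Mcm6 (62.6 CPM).

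Among syngeneic libraries, replicate 1 was the highest for Adipoq (938 CPM) and the lowest for Il1rap (15.6 CPM). Replicate 2 was the highest for Ctss (175 CPM), Fcgr4 (4.71 CPM), Itgax (21.7 CPM) and Stfa2 (0.0952 CPM). Replicate 3 was the highest for Junb (140.3 CPM), Hsd3b6 (20.3 CPM), Serpinb6e (40.3 CPM) and Ugt1a6b (70.8 CPM).

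Of the 136 genes named, 21 differed between the 2 allogeneic control groups in the test of that difference, with counting run and agent coinciding. The log2 fold changes of water against isotype were -2.14 for Chil3, -1.74 for Cd163, -3.39 for Far2, -1.33 for Mvd, -0.50 for Rfx5, -0.86 for Hspe1 and 0.54 for Hspa8. Genes that stood apart by counting run were -8.33 for S100a6, -7.94 for Aldoa, -7.01 for Ulk4, -6.96 for Ugt1a6b, -6.91 for Ccdc152, -1.17 for Tbp, 0.90 for Smad4, 2.95 for Il22ra1, 4.53 for Klhl11, 4.21 for Atp7a, 4.19 for Mfsd4a and 3.71 for Prrg4. Myhas (-8.49) and Cyp4f37 (4.38) overlapped between the runs.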

How the results depend on the processing

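No call of a named gene changed sign under any alternative. Of the 5831 genes called between water-treated and syngeneic skin, 2170 (1000 higher, 1170 lower) passed a test against a 1.5-fold change, and 3871 (1972 higher) were called with water replicates 1 and 2 alone. Leaving out each library in turn gave 4722 to 5596 calls, 2384 to 2854 higher and 2278 to 2742 lower. Alternatives chosen after seeing the data left out overlapping or unmatched genes, or genes apart by run. The first gave 3256 calls (1827 higher, 1429 lower) among 8959 symbols tested, and the second 4716 among 13378.

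The 1626 calls between the 2 allogeneic controls moved more. They became 2740 (698 higher, 2042 lower) without a floor on counts, 2822 (857 higher, 1965 lower) with filterByExpr, 717 (103 higher, 614 lower) against a 1.5-fold change, 997 (188 higher, 809 lower) with water replicates 1 and 2 and 1042 (222 higher) with replicates 3 and 4. DESeq2 called 694 higher. Without overlapping genes 470 were called (176 higher, 294 lower), and without genes apart by run 396 (87 higher, 309 lower). Leaving out each library gave 1299 to 1535 calls, 294 to 389 higher and 993 to 1146 lower. The cause of these moves was not tested, and genes apart by run do not overlap between the 2 controls by definition.

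Replicate numbers did not pair the samples: the correlations of same-numbered deviations were 0.124, 0.125, -0.279 and -0.0312 between water and syngeneic and -0.502, 0.0186, -0.0699 and -0.0600 between water and isotype libraries, and 2 of 4 and 0 of 4 water libraries correlated best with their own number. With the number as a replicate block 6020 genes were called against syngeneic and 978 (154 higher) against isotype skin. Depth limits genes near the floor of 20 counts, such as Ifng.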
